A study of Mus musculus with 3 samples.

Results

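The WNT genes of the developing mouse trunk are described here cell class by cell class: 52 genes of the 33696 in the count matrices. They were found by symbol alone, as every gene named Wnt, Fzd, Sfrp, Dkk or Rspo with a number, together with Frzb, Wif1, Notum, Apcdd1, Nkd1, Axin2, Sp5, Lef1, Lgr5, Ror1 and Ror2. They comprise 19 WNT ligands, 10 Frizzled receptors, 2 ROR receptors, 4 R-spondins, the R-spondin receptor Lgr5, 4 Dickkopf (DKK) genes, 6 genes of the SFRP group (with Frzb and Wif1) and 6 feedback or target genes. In the cells kept, a UMI (a counted transcript molecule) was found of 51 of them at E12.5 and of all 52 at E11.5 and at E13.5. The tissue was the dissected trunk from the third cervical to the second thoracic segment, neural tube included and forelimbs and thoracic organs removed, taken from E11.5, E12.5 and E13.5 embryos (days after fertilisation). Each stage is 1 droplet-based 3′ single-cell library from 3 pooled littermates, and the study's title places it in a search for early markers of brown adipose tissue. Strain, genotype and treatment are not given in the sources used here, and littermates within a pool cannot be told apart. With 1 library per stage, no test between stages was possible, and every interval below, given in parentheses after its value, is a 95% interval that covers counting error only.

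WNT ligands are lipid-modified secreted proteins that act over short distances. In the canonical branch a ligand joins a Frizzled receptor to a co-receptor of the Lrp family, beta-catenin is spared from destruction, and LEF/TCF factors switch on targets such as Axin2, Nkd1, Notum, Sp5, Lef1 and Apcdd1, several of which damp the pathway in turn. R-spondins raise the amount of Frizzled at the cell surface through Lgr receptors, DKK proteins such as Dkk1 block the co-receptor, and SFRP proteins, Frzb and Wif1 bind ligands outside the cell. In the trunk, WNTs from the dorsal neural tube and the surface ectoderm are known for their part in patterning the somite, dermis and muscle.

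The libraries held 103383215, 94155624 and 113402193 UMIs in order of stage. The kept barcodes (4000 UMIs or more) gave 6149, 6015 and 6943 cells, whose median depth was 12364, 10953 and 10179 UMIs. Between 10 and 16 cell barcodes were shared by any pair of libraries. Free RNA was estimated from haemoglobin at 2.16, 7.99 and 23.1% of UMIs over the pooled cells, and at 2.32% or less for the median cell at each stage. Haemoglobin at E13.5 was 0.597% of UMIs over the pooled cells and 0.06% in the median cell. The pooled estimate of that stage is therefore not a level that all cells shared, and the source of the difference was not tested. Cells were classed by clustering from which the WNT genes were kept out, with the classes named from other markers. Mesenchyme comprised 2444, 3106 and 4750 cells, neural progenitor-like cells 1317, 663 and 91, and epidermis-like cells 77, 95 and 288. The 8 mesenchyme markers summed to 2473, 5754 and 10754 CPM (a gene's UMIs per 1000000 UMIs of the cells summed) in mesenchyme. The 8 neural progenitor markers summed to 4475, 10811 and 22624 CPM in neural progenitor-like cells. The 10 epidermis markers summed to 3253, 5076 and 4945 CPM in epidermis-like cells. Since the classes were named from such markers, these sums describe the names and do not test them. At E13.5 the neural progenitor-like cells also carried 1695 CPM of mesenchyme markers, against 116 at E12.5, and the part of that RNA in their other E13.5 values was not tested. Different clusters filled a class at different stages. Mesenchyme was mostly sclerotome-named and lateral plate-named clusters at E11.5, tendon-named and chondrogenic-named ones at E12.5, and a fascia-named one with an unnamed one led by Dpt and Cemip at E13.5. Levels are given for each gene across classes and not between genes, since 3′ counting does not put genes on a common scale.

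WNT genes differed in level between the cell classes. The genes compared are those with at least 50 UMIs over both sides, which 45, 46 and 48 of the 52 had at the 3 stages. Relative to all other cells, 28 of 46 WNT genes compared at E12.5 were at least 2-fold higher in mesenchyme (60.9% of them, against 14.1% of all genes) and 11 were at least 2-fold lower (15.4% of all genes). The same counts for mesenchyme were 17 of 45 higher (6.76% of all genes) and 13 lower (16.0%) at E11.5, and 30 of 48 higher (14.1%) and 11 lower (14.4%) at E13.5. In epidermis-like cells of E12.5, 10 were higher (8.02% of all genes) and 25 lower (26.3%). In neural progenitor-like cells of E12.5, 13 were higher (7.82%) and 23 lower (23.2%). Of those 13, Fzd10 (log2 ratio 0.69), Nkd1 (-0.15), Wnt3 (-0.85) and Axin2 (-0.68) were no longer past 2-fold higher with a minimum of 6000 UMIs per cell. Cells were clustered and named again in that setting, and the class held 112 cells, against 663. At resolution 2, where the class held 211 cells, Nkd1 (0.59), Wnt3 (0.95) and Axin2 (0.41) were not past 2-fold either. Spinal neuron-like cells of E12.5 had 1 gene higher (18.3%), Fzd3, and 42 lower (28.0%).

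Epidermis-like cells held the highest level of 7 of the 19 ligands at E11.5 and of 9 at each later stage. Wnt6, a ligand typical of surface ectoderm, was at 476, 446 and 272 CPM there at the 3 stages in turn, and the next class was at 8.01, 20.5 and 17.5 CPM. The log2 ratio of epidermis-like cells over all other cells at E12.5 was 5.27 (5.12 to 5.42). Wnt3 was at 137, 169.7 and 115 CPM, with a log2 ratio of 6.12 (5.84 to 6.40) at E12.5. Wnt10a and Wnt10b, ligands known from the placodes of hair and tooth, were at 57.5, 80.0 and 67.8 CPM and at 20.5, 43.5 and 54.1 CPM. At E13.5 the epidermis-like class held most UMIs of these 2 genes, 321 of 375 for Wnt10a and 256 of 283 for Wnt10b. At E12.5 mesenchyme held 27 and neural progenitor-like cells 14 of the 168 Wnt10a UMIs, and mesenchyme 4 of the 69 Wnt10b UMIs. Wnt4 was highest in this class too, at 386, 492 and 361 CPM, and Wnt7b reached 101 CPM at E12.5. Wnt3a, at 1.37, 11.7 and 10.6 CPM, stood beside 4.08, 3.01 and 4.43 CPM in neural progenitor-like cells. The intervals of these classes stood apart at E12.5 and overlapped at E13.5. Wnt9b was found there at 18.5, 8.97 and 1.69 CPM, from 27, 13 and 8 UMIs. The class held 2 clusters, a basal one led by Krt15 and Krt14 with 40, 84 and 247 cells and a smaller one led by Gabrp and Krtdap with 37, 11 and 41 cells, so its makeup moved with stage.

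Neural progenitor-like cells shared Wnt3, Wnt4, Wnt7a and Wnt7b with the epidermis and held Wnt1 almost alone. Wnt1, the ligand of the dorsal midline of the neural tube, had 297 of its 319 UMIs in this class at E11.5 and 82 of 84 at E12.5, at 19.2 CPM (17.1 to 21.5) and 14.5 CPM (11.6 to 18.0). It had 0 UMIs in the 129 and 191 erythroid-like cells of those stages, where 3 UMIs would make 0.865 and 0.837 CPM. Wnt7b was at 69.0, 74.5 and 42.8 CPM and Wnt7a at 8.22, 12.6 and 11.8 CPM, and for Wnt7a the intervals of the neural progenitor-like and epidermis-like classes overlapped at every stage. Wnt4 was at 228, 269.8 and 143 CPM, below the epidermis-like level at each stage. Wnt8b was found at E12.5 with all of its 34 UMIs in this class (6.03 CPM, 4.17 to 8.42), against 5 and 2 UMIs in the class at E11.5 and E13.5. Wnt8a stayed at 6, 0 and 1 UMIs over all cells, too few for any comparison. In spinal neuron-like cells Wnt3 was at 2.03, 8.32 and 26.1 CPM.

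Among ligands best known from the noncanonical branch, mesenchyme held the highest level of Wnt5a and Wnt5b at every stage and of Wnt11 at E12.5 and E13.5. Wnt5a, which steers cell polarity and outgrowth through Ror2, was at 80.9, 121 and 129 CPM in mesenchyme. Its paralog Wnt5b was at 14.2, 20.4 and 12.4 CPM. Wnt11 had 2050 of its 2102 UMIs in mesenchyme at E12.5, with a log2 ratio over all other cells of 5.21 (4.82 to 5.64). At E11.5 it was at 14.2 CPM (11.4 to 17.6) in mesothelium-like cells and 12.2 CPM (11.0 to 13.4) in mesenchyme, with intervals that overlapped. Wnt16 was at 8.22, 4.22 and 1.94 CPM, lower at each later stage, and at E13.5 epidermis-like cells were higher at 17.1 CPM (13.6 to 21.3). Wnt9a was low throughout, with its highest level in myocyte-like cells at E12.5 (10.8 CPM, 7.80 to 14.6) and 4.60 CPM in mesenchyme. Wnt2b did not exceed 1.84 CPM in any class compared. Wnt2, a ligand known from the mesoderm around the lung and heart, stood in the mesothelium-like cells of E11.5, with 948 of its 1185 UMIs in 324 cells (159 CPM, 149 to 169), against 5.62 CPM in mesenchyme. The E12.5 and E13.5 libraries held 11 and 3 mesothelium-like cells, too few for a level.

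**Figure D1:**
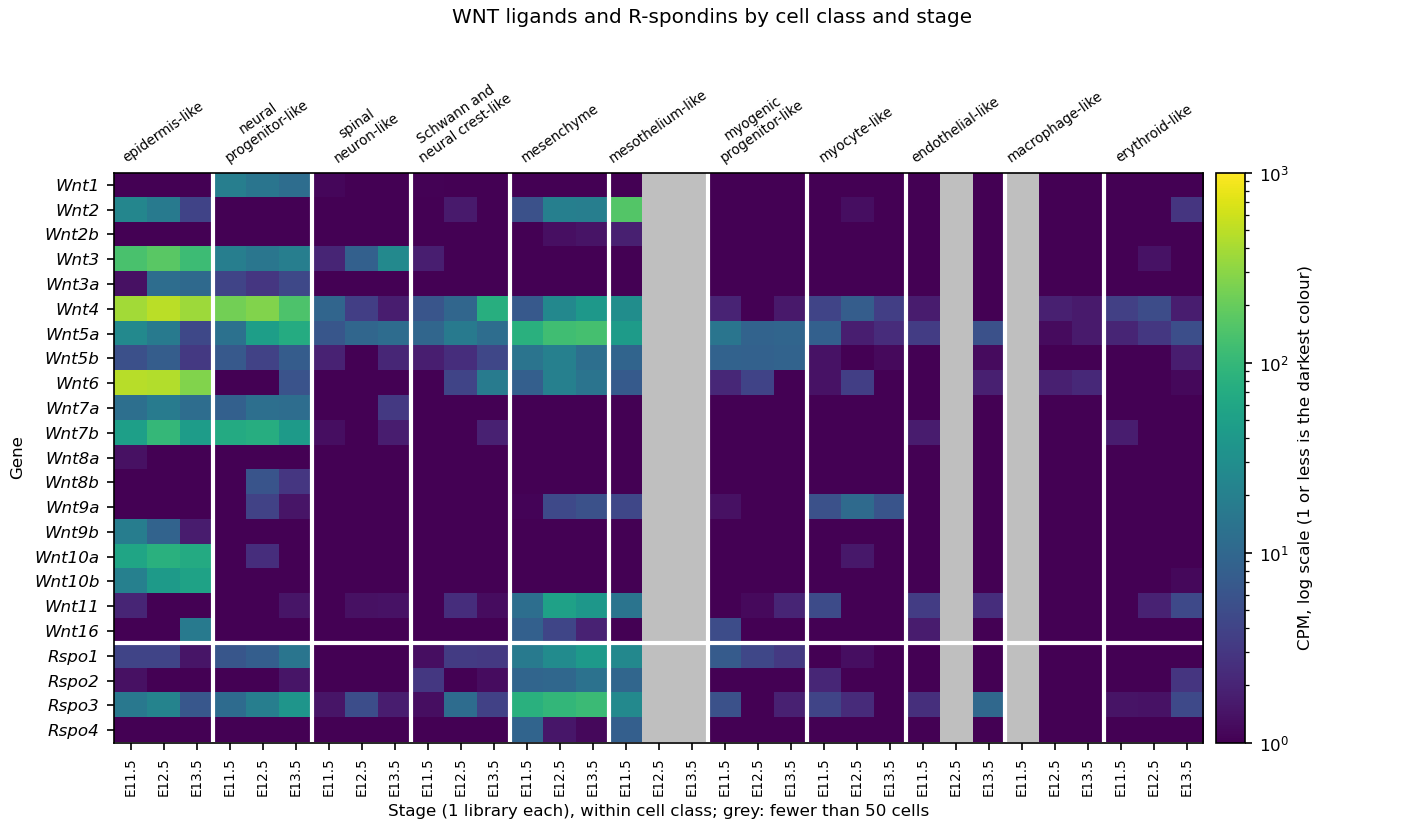
Levels of the 19 WNT ligands and 4 R-spondins (rows) in 11 cell classes by stage (columns), as CPM of summed counts on a log colour scale with 1 library per stage. Wnt3, Wnt6, Wnt10a and Wnt10b are brightest in epidermis-like cells, Wnt1 is seen in neural progenitor-like cells, and Wnt5a, Wnt11 and Rspo3 are brightest in mesenchyme, while Wnt2 reaches 159 CPM in the mesothelium-like cells of E11.5.

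Within the neural progenitor-like class, cells with a Wnt1 UMI carried a WNT profile of their own. They numbered 90 of 1317 at E11.5 (6.83%, exact interval 5.53 to 8.33), with up to 17 Wnt1 UMIs in a cell, and their median depth of 10780.5 UMIs stood beside 10789 in the cells without. Wnt3a, the partner of Wnt1 in the dorsal neural tube, was at 48.5 CPM in cells with Wnt1 and 0.697 CPM in cells without, with 53 of its 63 UMIs in the first. Rspo1 was at 81.5 against 0.557 CPM and Rspo3 at 133 against 2.02 CPM, log2 ratios of 7.19 (6.15 to 8.45) and 6.04 (5.45 to 6.67). Of the 6 targets, 4 were higher in the cells with Wnt1 with intervals clear of 0. These were Axin2 at 107 against 20.0 CPM, Nkd1 at 159 against 27.9 CPM, and Sp5 at 37.5 against 6.97 CPM. The fourth, Apcdd1, had 13.7 against 6.48 CPM, a log2 ratio of 1.08 (0.19 to 1.88). Lef1 had 7.32 and 5.16 CPM, with a log2 ratio whose interval spanned 0 (0.51, -0.76 to 1.56). Notum had 0 and 1 UMIs.

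Other genes were lower in the cells with Wnt1. Wnt7b was at 11.9 CPM with Wnt1 and 73.3 CPM without, and Sfrp2 at 43.9 against 169 CPM. Fzd9 had 0 UMIs in the cells with Wnt1 and 93 in those without. Fzd10, a receptor of the dorsal neural tube, was higher with Wnt1, at 175 against 96.8 CPM. The roof plate marker Lmx1a had all 17 of its UMIs in the cells with Wnt1, and Msx1 was at 349.7 against 24.7 CPM. At E12.5 the 17 of 663 cells with Wnt1 (2.56%, 1.5 to 4.07) were again the site of Wnt3a, with all 17 of its UMIs, of Rspo1 (43 against 2 UMIs) and of Rspo3 (94 against 14 UMIs). Wnt9a, with 19 against 3 UMIs, and Wif1, with 15 against 1, joined them there. Axin2 was at 278 against 32.2 CPM, while Nkd1 at 115 against 90.3 CPM had a log2 ratio whose interval spanned 0 (0.35, -0.23 to 0.87). The cells with Wnt1 at E12.5 were deeper, with a median of 10864 UMIs against 7148.5.

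R-spondins were mostly highest in mesenchyme. Rspo3 was at 79.8, 97.1 and 110.3 CPM in mesenchyme, above every other class at each stage. Rspo1 was at 17.3, 28.0 and 41.3 CPM and Rspo2 at 9.61, 9.93 and 13.4 CPM in mesenchyme. At E11.5 the mesothelium-like class stood above mesenchyme for Rspo1 (25.4 CPM, intervals apart) and level with it for Rspo2 (9.87 CPM, intervals overlapping). Rspo4 was the 1 R-spondin with its highest level at E11.5, at 9.35, 1.53 and 1.17 CPM in mesenchyme. Lgr5, an R-spondin receptor and a marker of several adult stem cells, was highest at E11.5 in neural progenitor-like cells (9.65 CPM, 8.16 to 11.3), with an interval that overlapped that of myogenic progenitor-like cells. It was at 8.85, 17.6 and 12.4 CPM in myogenic progenitor-like cells and at 2.48, 7.69 and 11.9 CPM in mesenchyme, and by E13.5 the 2 intervals overlapped.

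Frizzled receptors included broad and restricted genes. Fzd2 was highest in mesenchyme at 292, 343 and 254 CPM, and at 181, 172 and 163 CPM in neural progenitor-like cells. Fzd3, a receptor of axon guidance, was highest in neural progenitor-like cells at 171, 190.4 and 149 CPM and stood at 138, 131 and 134 CPM in spinal neuron-like cells. Fzd6, a receptor of planar polarity in skin, was at 73.2, 97.3 and 73.7 CPM in epidermis-like cells, with a log2 ratio over all other cells of 5.61 (5.27 to 5.95) at E12.5. Endothelial-like cells came next for Fzd6, at 10.2 CPM at E11.5 and 35.4 CPM at E13.5. Fzd4, the receptor of retinal vessel growth, was highest in endothelial-like cells at 54.5 CPM (42.0 to 69.6) and 77.0 CPM (64.1 to 91.7) at those stages, and in myogenic progenitor-like cells it was at 24.0, 47.2 and 65.0 CPM.

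The remaining Frizzled genes were each found in a few classes. Fzd10 was at 102, 97.7 and 54.7 CPM in neural progenitor-like cells and at 15.7, 99.3 and 105 CPM in epidermis-like cells. The intervals of these classes overlapped at E12.5, and the epidermis-like level was below at E11.5 and above at E13.5 with intervals apart. Fzd9 was at 24.97, 12.1 and 9.54 CPM in myocyte-like cells and at 6.02, 18.6 and 13.3 CPM in neural progenitor-like cells. Fzd8 was at 22.4, 52.1 and 44.9 CPM in mesenchyme and 46.5, 41.5 and 26.0 CPM in myocyte-like cells. Fzd1 was at 33.8, 41.7 and 33.9 CPM and Fzd7 at 28.8, 29.1 and 19.4 CPM in mesenchyme, and both were higher in the mesothelium-like cells of E11.5 (55.9 and 37.8 CPM). Fzd5 was scarce, with 77, 92 and 155 UMIs over all cells, and erythroid-like cells held its highest E11.5 level from 24 UMIs. Ror1 and Ror2, receptors for Wnt5a, were highest in mesenchyme at E12.5 and E13.5, where mesothelium-like cells were too few to rank. Ror1 was at 19.1, 24.4 and 25.6 CPM and Ror2 at 29.9, 24.2 and 25.2 CPM there, and at E12.5 the next class was at 4.20 CPM for Ror1 and 4.83 CPM for Ror2. At E11.5 mesothelium-like cells held 23.6 CPM of Ror1 and 26.8 CPM of Ror2, and both intervals overlapped those of mesenchyme.

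**Figure D2:**
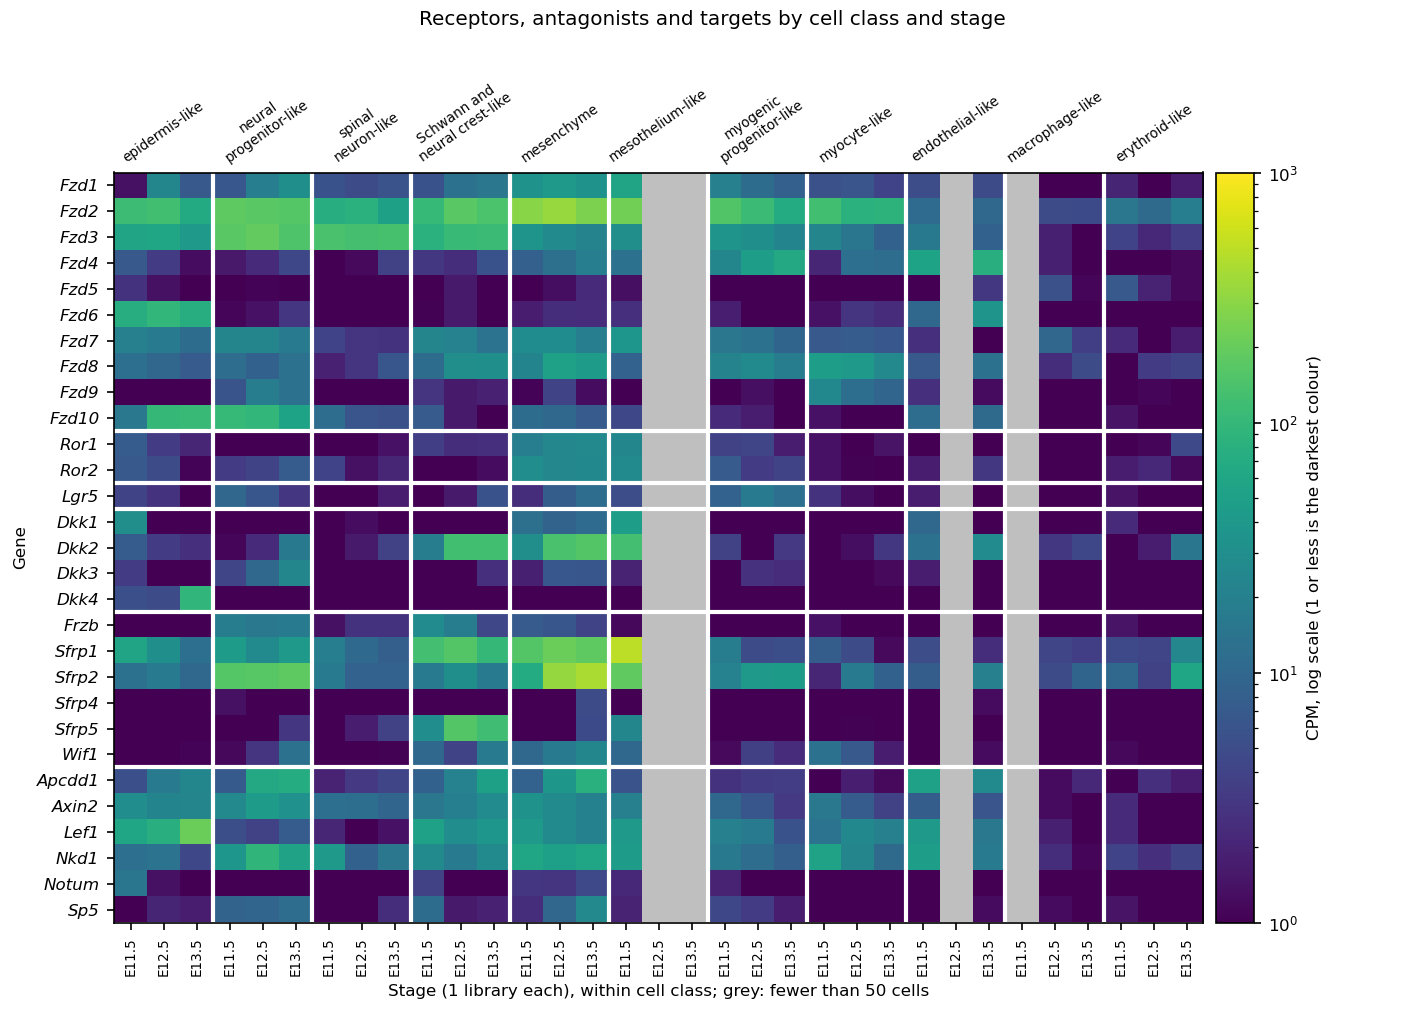
Levels of 29 receptors, antagonists and targets (rows, grouped by white lines) in 11 cell classes by stage (columns), as CPM of summed counts on a log colour scale with 1 library per stage. Fzd6 and Lef1 are brightest in epidermis-like cells, Ror1, Ror2, Dkk2 and Sfrp2 in mesenchyme, Sfrp5 in Schwann and neural crest-like cells, and Dkk4 is seen in epidermis-like cells at E13.5.

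Sfrp1, Sfrp2, Dkk1 and Dkk2 were highest in mesothelium-like cells at E11.5 and in mesenchyme at E12.5 and E13.5. The later stages held too few mesothelium-like cells for a level, so that class was not ranked there. Sfrp2 was at 69.3, 335 and 418 CPM in mesenchyme, at 159.9, 165 and 180.2 CPM in neural progenitor-like cells and at 184 CPM in the mesothelium-like cells of E11.5. Sfrp1 was at 159, 213 and 182 CPM in mesenchyme and at 498 CPM in the mesothelium-like cells of E11.5. Erythroid-like cells, which should lack both genes, held 10.1, 3.91 and 59.9 CPM of Sfrp2 and 4.61, 4.19 and 24.4 CPM of Sfrp1. Macrophage-like cells of E13.5 held 9.38 and 3.59 CPM of them. The part of free RNA in these levels was not tested. Dkk2 was at 127 CPM in the mesothelium-like cells of E11.5, at 30.2, 139 and 156 CPM in mesenchyme and at 18.8, 123 and 123 CPM in Schwann and neural crest-like cells. Dkk1, which blocks the Lrp co-receptor, was at 12.7, 9.05 and 11.3 CPM in mesenchyme, and at E11.5 it was higher in mesothelium-like (46.5 CPM) and epidermis-like cells (30.1 CPM). No Dkk1 UMI was found in the epidermis-like cells of the later stages, where 3 UMIs would make 2.07 and 0.633 CPM. Dkk3 was highest in neural progenitor-like cells at 4.27, 10.1 and 23.6 CPM.

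Sfrp5 belonged to Schwann and neural crest-like cells, at 29.9, 156 and 121 CPM, with 189 of its 231 UMIs of E12.5 in those 76 cells. Mesenchyme had 0.148, 0.276 and 4.69 CPM of it. Frzb was shared by that class and the neural progenitor-like class, at 28.1, 18.1 and 4.38 CPM and 18.6, 15.8 and 17.7 CPM. Sfrp4 was nearly absent before E13.5 (8, 19 and 255 UMIs in mesenchyme). Wif1 was at 10.4, 17.7 and 23.6 CPM in mesenchyme. At E11.5 its interval there overlapped that of myocyte-like cells (13.2 CPM, 7.93 to 20.6).

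The 6 target genes were compared across the classes. Axin2, the most general readout of the pathway, was at 34.4, 27.5 and 20.8 CPM in mesenchyme, at 26.2, 44.0 and 32.5 CPM in neural progenitor-like cells and at 29.4, 22.8 and 23.4 CPM in epidermis-like cells. At E12.5 its log2 ratio in neural progenitor-like cells over all others was past 2-fold, but it was -0.68 with a minimum of 6000 UMIs per cell, 0.41 at resolution 2, 0.74 with a 5% mitochondrial maximum and 0.88 in cells thinned to 4000 UMIs. Nkd1 was at 57.6, 49.98 and 58.7 CPM in mesenchyme, 37.2, 91.5 and 53.2 CPM in neural progenitor-like cells and 40.6, 8.60 and 15.7 CPM in spinal neuron-like cells. Lef1 was highest in epidermis-like cells at 60.2, 75.9 and 211 CPM, and its E13.5 interval there stood apart from that of the next class (37.5 CPM). Apcdd1, a membrane inhibitor of the pathway, was highest in endothelial-like cells at E11.5 (52.0 CPM, 39.8 to 66.8), in neural progenitor-like cells at E12.5 (63.8 CPM, 57.4 to 70.8), and in mesenchyme at E13.5 (79.5 CPM, 77.1 to 82.0), the last with an interval that overlapped the neural progenitor-like one. Sp5 was at 11.6 CPM in the Schwann and neural crest-like cells of E11.5 and at 2.45, 9.78 and 25.8 CPM in mesenchyme, where the E13.5 interval stood above that of the next class (11.8 CPM in neural progenitor-like cells). Notum, a secreted enzyme that strips the lipid from WNT ligands, was at 15.1, 1.38 and 0.422 CPM in epidermis-like cells and 3.02, 2.94 and 4.59 CPM in mesenchyme.

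Promoter windows of the members were read for the motif bound by LEF/TCF factors, the factors that act on targets of the canonical branch. Sp5 and Dkk1, whose windows are shown, were high together in the mesenchymal cells described further on. Axin2, whose window had no match, was high there too. Whether the motif has a part in these levels was not tested. RefSeq windows of mouse build GRCm38.p6, each running from 250 bases before a gene's start to 50 after it, were found for 35 of the 52 genes (41 windows). The motif was searched on both strands in 4 spellings that cannot match at the same place on a strand. They were CTTTGAA or, with the last letter changed, CTTTGAT, and otherwise CTTTGTA or, with the last letter changed, CTTTGTT. At least 1 match was found in 7 of the 41 windows (17.1%), close to the 5544 of 32851 windows of all genes (16.9%). At least 2 matches were found in Sp5 and Dkk1 alone among the members, against 637 windows of all genes (1.94%). These 2 windows are printed with that of Axin2, a widely used readout of the pathway that had no match, 5′ to 3′ on the gene's strand with the matches in capitals. The gene start is base 251 of each. A match is a description of these letters and not a site shown to be bound. The windows are chr2:70474673-70474972 (plus strand) for Sp5, chr19:30549447-30549746 (minus strand) for Dkk1 and chr11:108920099-108920398 (plus strand) for Axin2. The capitals in Sp5 are bases 29 to 35, where CTTTGTT lies on the opposite strand, and bases 147 to 153 (CTTTGAT). In Dkk1 they are bases 134 to 140 (CTTTGAA) and 153 to 159 (CTTTGTT).
Sp5: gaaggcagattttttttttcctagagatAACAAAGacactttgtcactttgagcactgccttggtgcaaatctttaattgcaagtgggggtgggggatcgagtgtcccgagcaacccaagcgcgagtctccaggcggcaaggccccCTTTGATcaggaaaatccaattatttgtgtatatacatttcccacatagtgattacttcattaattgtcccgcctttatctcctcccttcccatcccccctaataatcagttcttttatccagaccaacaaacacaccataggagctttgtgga
Dkk1: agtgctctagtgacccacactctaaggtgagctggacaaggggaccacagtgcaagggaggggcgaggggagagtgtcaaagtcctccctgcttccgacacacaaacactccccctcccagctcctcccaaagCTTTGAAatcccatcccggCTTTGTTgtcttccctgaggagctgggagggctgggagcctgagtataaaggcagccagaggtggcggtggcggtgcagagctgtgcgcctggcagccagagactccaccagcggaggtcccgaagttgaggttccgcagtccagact
Axin2: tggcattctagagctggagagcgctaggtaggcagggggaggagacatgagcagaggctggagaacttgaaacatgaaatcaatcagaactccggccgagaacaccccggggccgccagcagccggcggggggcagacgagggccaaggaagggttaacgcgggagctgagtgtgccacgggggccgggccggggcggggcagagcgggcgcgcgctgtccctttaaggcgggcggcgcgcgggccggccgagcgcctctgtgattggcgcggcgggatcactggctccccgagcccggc

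Of all stage comparisons, mesenchyme at E12.5 over E11.5 had the most WNT genes past 2-fold by number. The other classes had fewer genes with counts enough to compare, so this is not a ranking by share. Of 39 WNT genes compared there, 15 were at least 2-fold higher at E12.5 (11.2% of all genes) and 1 at least 2-fold lower (1.63%). Their median log2 ratio was 0.52, against 0.14 over all genes, and 14 genes were higher with the ratios centred on that shift. Sfrp2 was at 335 CPM at E12.5 and 69.3 CPM at E11.5, a log2 ratio of 2.27 (2.21 to 2.34). Dkk2 was at 139 CPM against 30.2 CPM, a log2 ratio of 2.20 (2.10 to 2.30). Wnt11 had 51.5 CPM against 12.2 CPM, with a log2 ratio of 2.08 (1.93 to 2.24), and Wnt4 had a log2 ratio of 1.86 (1.65 to 2.07). Wnt9a, at 2.11 (1.59 to 2.67), and Fzd5, at 2.63 (1.48 to 4.02) from 51 UMIs against 7, rest on low counts.

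Among the targets, Apcdd1 (2.11, 1.93 to 2.29) and Sp5 (1.99, 1.65 to 2.35) were higher at E12.5. Axin2 at -0.32, Lef1 at -0.67, Nkd1 at -0.20 and Notum at -0.04 were not past 2-fold, so the 6 targets did not move as 1 group. Wnt2 was also higher at E12.5, with a log2 ratio of 1.80 (1.57 to 2.03), but it turned to -0.22 with a 5% mitochondrial maximum. Fzd9 (1.97), Dkk3 (1.83), Lgr5 (1.63), Wnt6 (1.36), Fzd8 (1.22) and Wnt2b (1.10) completed the genes past 2-fold, of which Wnt6 was at 0.81 in thinned cells. Rspo4 was the gene lower at E12.5, with 61 UMIs against 316 at E11.5 and a log2 ratio of -2.61 (-3.03 to -2.21).

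**Figure D3:**
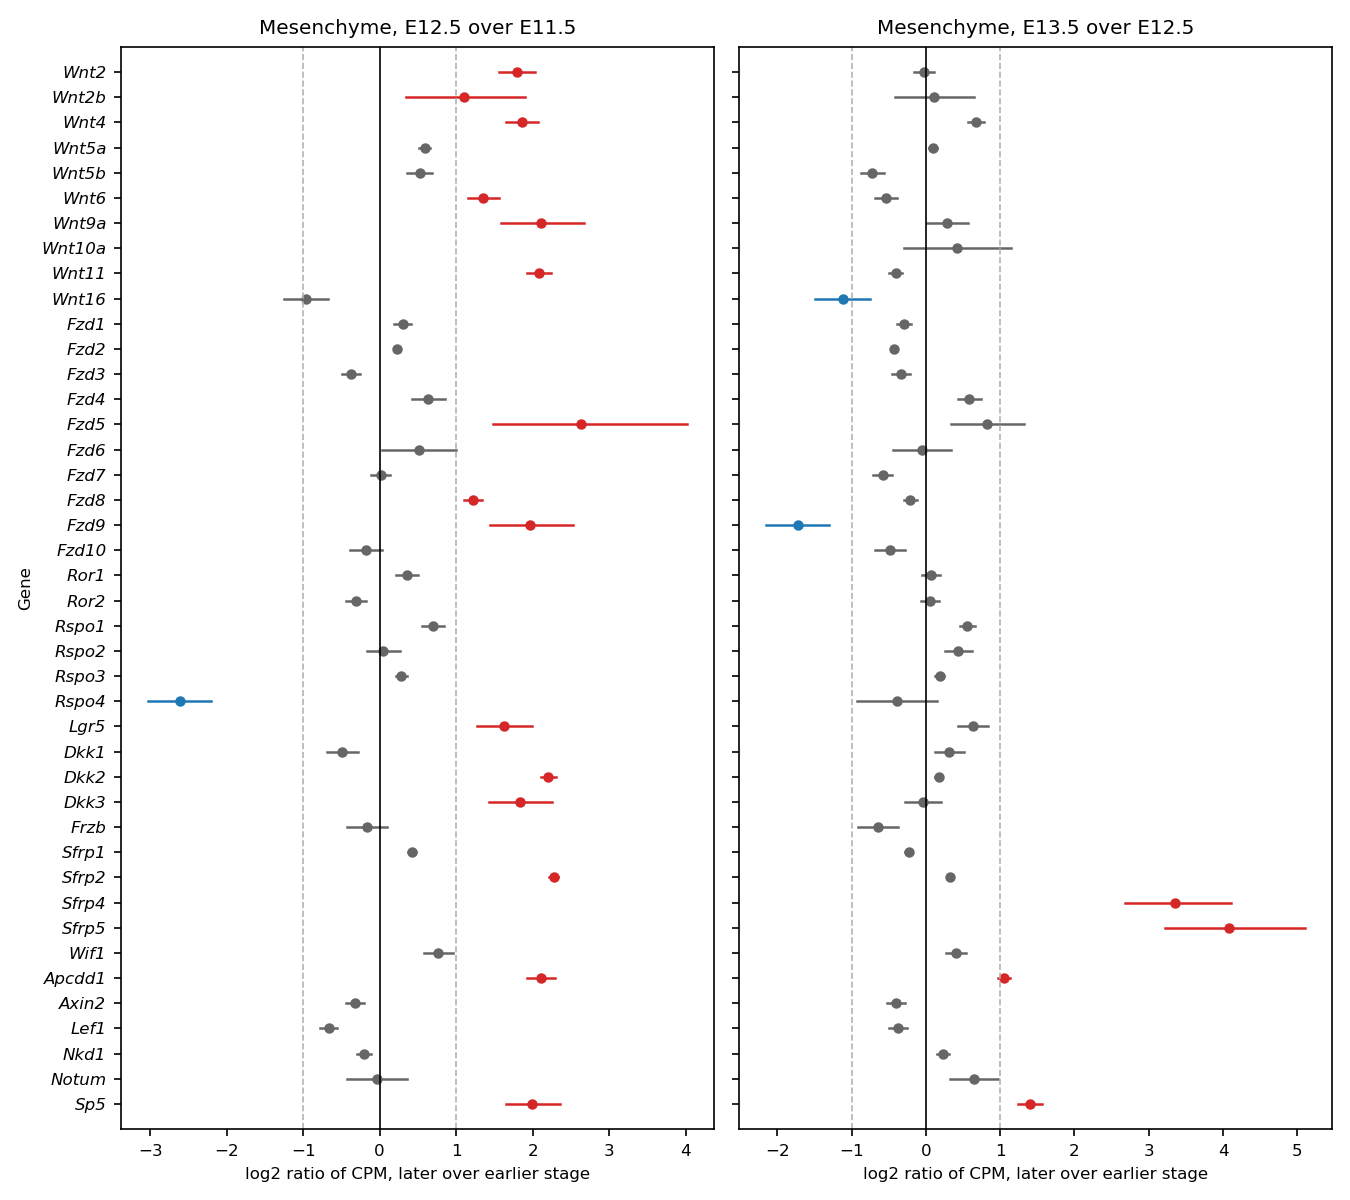
Log2 ratio of CPM in mesenchyme, later over earlier stage, for each WNT gene with at least 50 UMIs over both sides, with its exact 95% counting interval (lines) and the 2-fold limits (dashed). At E12.5 over E11.5 (left), 15 genes lie past the upper limit (red) and Rspo4 past the lower (blue). At E13.5 over E12.5 (right), Sfrp5, Sfrp4, Sp5 and Apcdd1 lie above and Fzd9 and Wnt16 below.

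Fewer WNT genes were past 2-fold in mesenchyme at E13.5 over E12.5. Of 42 compared, 4 were at least 2-fold higher at E13.5 (9.52% of them, against 3.30% of all genes) and 2 lower (4.76%, against 3.53%). Sfrp5 was at 244 UMIs against 11 at E12.5, a log2 ratio of 4.08 (3.22 to 5.11). Sfrp4 was at 255 against 19 UMIs, a log2 ratio of 3.36 (2.69 to 4.11). Sp5 (1.40, 1.24 to 1.57) and Apcdd1 (1.05, 0.97 to 1.14) were higher a further time, though Apcdd1 came just under 2-fold with a 5% mitochondrial maximum (0.997). Fzd9 (-1.72, -2.15 to -1.30) and Wnt16 (-1.12, -1.49 to -0.76) were lower, Wnt16 by less than 2-fold with free RNA subtracted (-0.94). The 7 erythroid markers in mesenchyme summed to 5256 CPM at E13.5 and 1053 CPM at E12.5.

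In neural progenitor-like cells 6 of 28 genes compared were at least 2-fold higher at E12.5 than at E11.5 (8.20% of all genes) and 0 lower (3.23%). Apcdd1 was at 63.8 CPM at E12.5 and 6.99 CPM at E11.5, a log2 ratio of 3.19 (2.88 to 3.51). Wnt5a was at 47.7 against 13.0 CPM, a log2 ratio of 1.87 (1.60 to 2.14). The other 4 were Fzd9 (1.63), Fzd1 (1.56), Nkd1 (1.30) and Dkk3 (1.24). Nkd1 turned to -0.18 with a minimum of 6000 UMIs per cell, and to 0.76 with clustering at resolution 2. At E11.5 the class came mostly from a cluster led by Ptf1a and Sox3, and at E12.5 from clusters led by Gsx2 and by Tlx1. Mesenchyme markers in the class summed to 116 CPM at E12.5 and 59.8 CPM at E11.5. Dkk3 alone, at E13.5 over E12.5, was past 2-fold of 23 genes, at 1.23 (0.33 to 2.05), where 5.51% of all genes were higher and 7.84% lower. Only 91 cells stood behind the E13.5 value, and the ratio was 0.15 with clustering at resolution 2. In the class the 7 erythroid markers summed to 17253 CPM at E13.5 and 419 CPM at E12.5, and mesenchyme markers to 1695 and 116 CPM, whose part in the ratio was not tested.

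Epidermis-like cells at E12.5 over E11.5 had 3 of 17 genes higher (2.98% of all genes) and 0 lower (4.33%): Fzd10 at 2.66 (2.02 to 3.36), Wnt10b at 1.08 (0.43 to 1.76) and Wnt7b at 1.01 (0.60 to 1.44). Of 22 compared at E13.5 over E12.5, 3 were higher (2.17%) and 4 lower (4.74%). Dkk4, an antagonist of the DKK group found in hair placodes, had 446 UMIs at E13.5 and 7 at E12.5, a log2 ratio of 4.29 (3.23 to 5.61). Lef1 was at 211 against 75.9 CPM (1.47, 1.19 to 1.77). Wnt16 had 81 UMIs at E13.5 and 1 at E12.5, a log2 ratio of 4.63 (2.11 to 9.95). The genes lower at E13.5 were Fzd1 (-1.79), Rspo3 (-1.75), Sfrp1 (-1.32) and Wnt7b (-1.14). Mesenchyme markers in the class summed to 407 CPM at E13.5 and 379 CPM at E12.5, and the 7 erythroid markers to 8478 and 251 CPM. The part of free RNA in these ratios was not tested.

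The smaller classes had few genes with counts enough to compare. In Schwann and neural crest-like cells 4 of 14 were higher at E12.5 than at E11.5 (5.83% of all genes) and 0 lower (2.54%): Dkk2 (2.71, 2.29 to 3.13), Sfrp5 (2.38, 2.04 to 2.73), Fzd8 and Apcdd1. Wnt4 had 123 UMIs at E13.5 against 12 at E12.5 in that class (2.96, 2.11 to 3.95), 1 of 2 genes higher there of 12 (2.19%), with 0 lower (1.35%). In spinal neuron-like cells Wnt3 was higher at both steps, with log2 ratios of 2.03 (1.38 to 2.73) and then 1.65 (1.19 to 2.11). It was 1 of 2 genes higher of 16 at the first step (5.53%) and 1 of 2 of 12 at the second (2.24%), where Rspo3 was lower (4.05%). Different clusters filled this class at each stage, and its 7 erythroid markers summed to 101, 3001 and 15941 CPM. Nkd1 was lower at E12.5 than at E11.5 in those cells (-2.24, -2.57 to -1.92), with Ror2 and Wnt4 (5.01% of all genes lower). Myogenic progenitor-like cells had 2 of 16 genes lower at E12.5 (2.69%), Sfrp1 (-1.95) and Ror2 (-1.11), and 2 of 14 lower at E13.5 (2.30%), Lef1 (-1.62) and Axin2 (-1.01). No gene was higher in them at E12.5 (2.41% of all genes) or at E13.5 (1.71%). Myocyte-like cells had 2 of 10 higher at E12.5 (2.48%), Sfrp2 (3.01, 16.7 against 2.08 CPM) and Fzd4 (2.57), and 3 lower (4.67%), Nkd1 (-1.22), Axin2 (-1.09) and Fzd9 (-1.04). At E13.5 Nkd1 was lower a second time, the 1 of 10 past 2-fold (3.34% of all genes lower, 0.972% higher). Of the 215 myocyte-like cells at E12.5, 38 came from a cluster with a median of 4932 UMIs. The erythroid markers summed to 87.4, 3862 and 2578 CPM in myocyte-like cells, 78.4, 2064 and 7739.8 CPM in myogenic progenitor-like cells and 81.6, 257 and 4411 CPM in Schwann and neural crest-like cells. The part of free RNA in the ratios of these classes was not tested.

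Mesenchyme, the broadest class, was then divided into sub-clusters. At E13.5, of 15 sub-clusters with at least 50 cells, the unnamed sub-cluster 12, led by Runx3, Casz1 and Nrgn (359 cells, 7.56% of mesenchyme), held the highest level of each of the 6 targets, and the unnamed sub-cluster 5, led by Nrgn, Casz1 and Runx3 (361 cells, 7.6%), the next highest of each. These sub-clusters were singled out for their target levels, which are given as a description. In sub-cluster 12, of 41 WNT genes compared with the other mesenchyme of that stage, 14 were at least 2-fold higher (3.89% of all genes) and 17 at least 2-fold lower (15.9%). The 6 targets are among those 14 by the choice of the sub-cluster, and without them 8 of 35 were higher. Sp5 was at 132 against 17.7 CPM (2.91, 2.74 to 3.07). Lef1 was at 100.1 against 14.5 CPM (2.79, 2.60 to 2.97) and Axin2 at 66.3 against 17.3 CPM (1.94, 1.73 to 2.15). Apcdd1, at 336 against 59.9 CPM, Nkd1, at 202 against 47.7 CPM, and Notum, at 28.7 against 2.75 CPM, were likewise higher.

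The antagonists split in these cells. Dkk1 was at 58.7 CPM in sub-cluster 12 against 7.63 CPM in other mesenchyme, Wif1 at 89.9 against 18.5 CPM and Sfrp5 at 30.04 against 2.75 CPM. Sfrp2, at 40.1 against 447 CPM (-3.48, -3.72 to -3.25), Dkk2, at 18.9 against 167 CPM, and Sfrp1, at 42.2 against 192 CPM, were lower there. Receptors split too. Fzd10 was higher (2.15 on the log2 scale), while Fzd4 (-5.25), Fzd8 (-3.38), Lgr5 (-3.23) and Ror1 (-2.19) were lower. Among ligands and R-spondins, Rspo1 (1.96), Wnt4 (1.91) and Wnt6 (1.12) were higher, and Rspo2 had 0 UMIs against 14.5 CPM in other mesenchyme. The E13.5 library gave 98.1% of the cells of sub-cluster 12, so it may stand for that library as well as for a kind of cell, and the haemoglobin gene Hbb-y of erythroid cells was among its 10 leading genes. The part of free RNA in its values was not tested.

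Sub-cluster 5 (178 cells of E12.5, 361 of E13.5) had the pattern at both stages. At E12.5 it was first for 5 of the 6 targets and 13 genes were higher there (4.37% of all genes) and 11 lower (12.2%). At E13.5 the counts were 13 (5.39%) and 16 (14.4%). Without the 6 targets, 7 of 33 genes were higher at E12.5 and 7 of 35 at E13.5. Dkk1 was at 47.1 against 5.86 CPM at E12.5 and 44.2 against 7.77 CPM at E13.5. Lef1 was at 93.8 against 21.1 CPM and then 84.4 against 13.8 CPM. Fzd8 was at 3.57 against 56.1 CPM and then 3.01 against 49.4 CPM. A further E12.5 sub-cluster, 14 (297 cells, unnamed, led by Srd5a2 and Nebl), was first or second for 5 targets, with 12 genes higher (2.84%) and 9 lower (8.97%), or 6 of 33 higher without the targets. At E11.5 the highest levels of the targets were split between sub-clusters. The meningeal-like sub-cluster 15 (267 cells) was first for Axin2 (121 against 26.4 CPM), Nkd1 (164 against 47.6 CPM), Notum and Sp5. Sub-cluster 6 (459 cells) was first for Apcdd1 and Lef1 and second for Axin2 and Nkd1. Sub-cluster 15 had 9 of 35 genes higher (7.36%) and 6 lower (7.81%), or 5 of 29 higher without the targets.

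**Figure D4:**
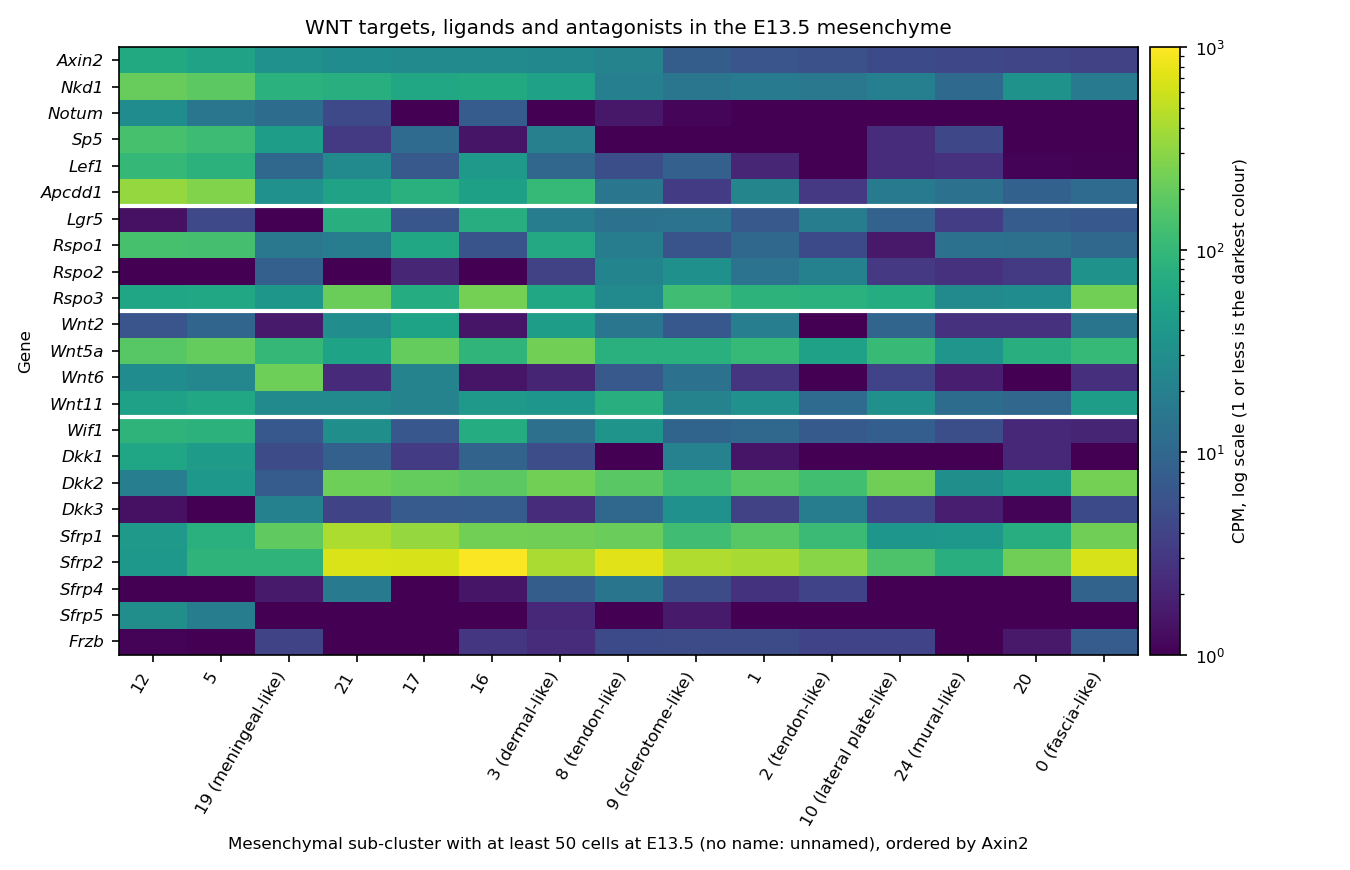
Levels of 23 WNT genes (rows) in the 15 mesenchymal sub-clusters with at least 50 cells at E13.5 (columns, ordered by Axin2), as CPM on a log colour scale from 1 library. Sub-clusters 12 and 5 at the left hold the highest levels of all 6 targets, with Dkk1, Wif1 and Rspo1, and low Sfrp2 and Dkk2. The fascia-like sub-cluster 0 at the right has Lef1 at 1.06 CPM, with Sfrp2 at 664 CPM and Dkk2 at 238 CPM.

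Other sub-clusters carried ligand and R-spondin profiles of their own. At E11.5 and E13.5, 96.9% and 58.7% of mesenchyme lay in sub-clusters that drew over 90% of cells from a single library. Such a sub-cluster may stand for that library as well as for a kind of cell. Sub-clusters 0 and 3 had under 50 cells at E12.5. The fascia-like sub-cluster 0 (1137 cells at E13.5) had 5 genes higher (2.16%) and 18 lower (7.23%). Its higher genes were Rspo2 (34.7 against 7.50 CPM), Rspo3 (232 against 76.2 CPM), Sfrp4, Frzb and Ror1. All 6 targets were among the lower ones (12 of 35 lower without them), with Axin2 at 3.78 against 25.5 CPM and Sp5 at 0.791 against 32.8 CPM. The meningeal-like sub-cluster 19 (115 cells at E12.5, 93 at E13.5) was high for Wnt6, at 235 against 12.7 CPM and then 220.1 against 9.26 CPM, with Wnt4 at 163 against 20.0 CPM and then 316 against 33.5 CPM. Its Dkk2 was low, at 8.60 against 144 CPM at E12.5. Fzd9 and Frzb were highest in the chondrogenic-like sub-cluster 18 at E12.5, Fzd9 at 39.7 against 1.33 CPM and Frzb at 26.5 against 4.80 CPM. Lgr5 was gathered in the unnamed sub-clusters 21 and 16 at E13.5, at 77.4 and 73.2 CPM, where Rspo3 was also high (213 and 233 CPM). The dermal-like sub-cluster 3 (620 cells) was high for Wnt2 (47.7 against 15.5 CPM) and Wnt5a (233 against 116 CPM).

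Stage ratios were next taken within the 8 sub-clusters that held at least 50 cells at both E12.5 and E13.5. All are parts of the same E12.5 and E13.5 libraries, so ratios of like sign in them are not replicates. Shares of all genes with like signs are not given. Axin2 was below 0 on the log2 scale in 5 of 5 sub-clusters where it could be compared, from -1.47 to -0.43. Fzd2 and Sfrp1 were below 0 in 8 of 8, with medians of -0.39 and -0.52. Wnt6 was above 0 in 1 of 5 and at least 2-fold lower in 3, with a median of -1.18. Wnt2 was below 0 in 6 of 7, with a median of -1.60 and a range from -4.84 to 1.17, while its level in mesenchyme as a whole was 19.1 CPM at E13.5 and 19.5 CPM at E12.5. Fzd4 was above 0 in 5 of 5 and Lgr5 in 3 of 3. Apcdd1 was above 0 in 5 of 6, with a median of 0.74. In sub-cluster 5, Sfrp5, Sp5 and Wif1 were at least 2-fold higher at E13.5 (3 of 27 genes, against 3.13% of all genes), and Dkk2, Sfrp1, Wnt2 and Wnt5b at least 2-fold lower (3.44% of all genes). No such comparison could be made with E11.5, since 96.9% of its mesenchyme lay in sub-clusters that drew over 90% of cells from a single library.

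Dkk4 marked a small set of epidermis-like cells at E13.5. It was found in 38 of 288 of them (13.2%, exact interval 9.51 to 17.7), with up to 41 UMIs in a cell and at least 5 in 19 cells, and 446 of its 447 UMIs lay in the class. The share was 10.4% after each cell was thinned to 4000 UMIs. No Dkk4 UMI was seen in the 131 erythroid-like cells of that stage, which allows up to 1.74 CPM. Median depth was 15595 UMIs in the cells with Dkk4 and 14243.5 in those without, beside 12514 in erythroid-like cells. Wnt10b, a placode ligand, was at 134 CPM in the cells with Dkk4 and 41.9 CPM in those without, a log2 ratio of 1.68 (1.28 to 2.06). Fzd10, at 183 against 93.2 CPM, and Lef1, at 320.2 against 194 CPM, were also higher.

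Wnt4 was lower in the cells with Dkk4, at 162 against 391 CPM (-1.27, -1.57 to -0.98), as was Wnt7b, at 23.9 against 48.9 CPM (-1.03, -1.90 to -0.28). Wnt10a, at 70.1 against 67.4 CPM, and Axin2, at 31.9 against 22.2 CPM, had intervals of the ratio that spanned 0. All 8 Sp5 UMIs of the class were in the cells with Dkk4. Shh and Fgf20, genes known from hair placodes that were looked at after Dkk4 had been seen, had 33 against 0 and 35 against 5 UMIs. The basal keratin Krt14 was at 1523 and 1532 CPM, and Krt15 at 591 and 1403 CPM. These cells were chosen by a UMI of the gene itself, so its own ratio was not given.

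**Figure D5:**
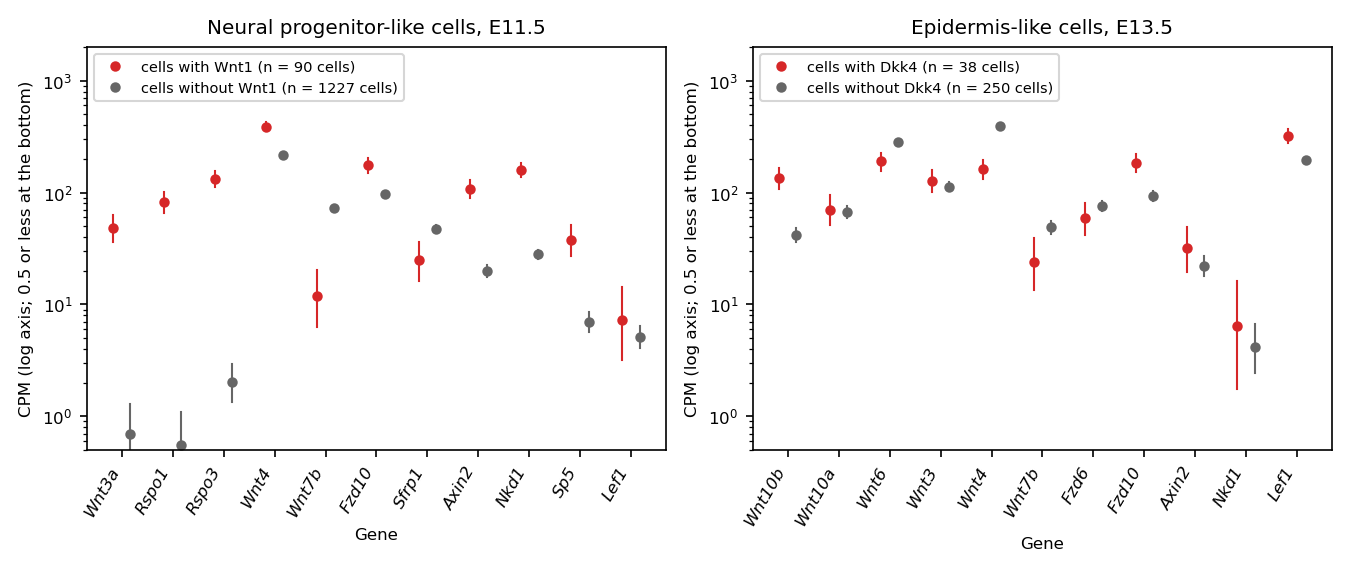
Levels of selected WNT genes, as CPM on a log axis with exact 95% counting intervals (lines), in cells with a UMI of Wnt1 or Dkk4 (red) and cells of the same class and library without one (grey). In neural progenitor-like cells at E11.5 (left), Wnt3a, Rspo1, Rspo3, Axin2, Nkd1 and Sp5 are higher with Wnt1 and Wnt7b is lower. In epidermis-like cells at E13.5 (right), Wnt10b, Fzd10 and Lef1 are higher with Dkk4 and Wnt4 and Wnt7b are lower.

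Genes of the pathway outside the 52 were read from lists by role. In mesenchyme at E12.5 over E11.5, 0 of 16 intracellular transducers were past 2-fold and 0 of 3 secretion genes, with 2 of 12 co-receptor genes higher (Gpc4, 19.9 against 4.97 CPM, and Reck, 29.3 against 12.8 CPM). Of the other lists Vangl1 (1 of 6 planar polarity genes) and Sostdc1 (1 of 7 other antagonists, 23.2 against 6.86 CPM) were higher, 0 of 7 other targets and 0 of 2 receptor turnover genes passed, and 0 genes of any list were lower. Over all genes the shares there were 11.2% higher and 1.63% lower. In the next step, at E13.5 over E12.5, 0 genes were higher (3.30% of all genes), and Celsr1 (1 of 6 planar polarity genes) and Shisa3 (1 of 7 other antagonists) were lower (3.53% of all genes). Across classes at E12.5, Wls, the carrier that brings WNT ligands to the cell surface, was at 181 CPM in epidermis-like cells against 66.6 CPM in all others, and at 96.6 CPM in mesenchyme against 39.2 CPM. Epidermis-like cells had 3 of 4 receptor turnover and DKK receptor genes higher, against 8.02% of all genes: Rnf43 (25.5 against 0.383 CPM), Znrf3 (25.5 against 5.98 CPM) and the DKK receptor Kremen2 (119 against 5.08 CPM). Mesenchyme, where 14.1% of all genes were higher, had 6 of 11 co-receptor genes higher, with the glypican Gpc3 at 992 against 68.5 CPM, and 4 of 16 transducers, Tcf7, Tcf7l1, Tcf7l2 and Bcl9l. Neural progenitor-like cells had 3 of 7 planar polarity genes higher (7.82% of all genes), Vangl2, Celsr1 and Celsr2, the last at 202 against 22.6 CPM, and the WNT antagonist Draxin at 40.2 against 7.61 CPM.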

How the data were processed

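The 3 libraries hold UMI counts per gene and barcode, as deposited by the authors. Per the submitters' processing notes, reads were processed with Cell Ranger 8.0.1 against mouse GRCm39, and per the labels' protocols the chemistry was 10x 3′ v3.1 after dissociation with TrypLE. The matrices held all barcodes, so cells were selected again: at least 4000 UMIs and 500 genes and at most 10% mitochondrial UMIs. Doublets called by scrublet (2.60, 2.04 and 2.40% of cells in order of stage) were removed.

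Cells were clustered jointly with the 52 genes kept out (scanpy 1.11.5, igraph 0.11.9, 3000 variable genes, 40 components, 15 neighbours, Leiden resolution 1). Names were given to clusters by 185 markers for 29 classes, and mesenchyme was clustered again. This gave 41 clusters, 36 of them named, and 28 sub-clusters, 12 of them named. A difference from other accounts of these data may come from these rebuilt names. UMIs were summed per class and library, and levels are CPM with exact Poisson intervals, shares have Clopper-Pearson intervals, and log2 ratios have exact conditional binomial intervals, all at 95% and for counting error only (scipy 1.17.1). A gene counted as higher or lower at 2-fold or more, with at least 50 UMIs over both sides and 50 cells on each. With 1 library per stage no p-value was computed. Free RNA was estimated from haemoglobin UMIs in droplets of 50 to 500 UMIs and in cells, and it was not subtracted in the values given. The ratios and their intervals were tested on simulated counts, drawn with the same counting error that the intervals assume. Clustering, naming and free RNA were not part of that test.

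The members and lists were chosen with earlier results of these data known. Chosen after values were seen were the rule that a leading gene be detected in 20% of a cluster's cells, the need for a marker among the top 10 genes of a named sub-cluster, the mural class, the resolution used in mesenchyme, the pooled estimate of free RNA, the groups of cells with Wnt1 or Dkk4, the genes set beside them, the stage ratios within sub-clusters and the sub-cluster counts without the targets. Genes were named by rule: all members, those past 2-fold up to 8 in each direction, the class with the highest CPM among classes of 50 cells and 10 UMIs, and pathway and marker lists. Where a comparison was described by role, further members past 2-fold were also named. Alternatives were other minima of UMIs per cell and per gene, a lower mitochondrial maximum, doublets kept, resolution 2, the members among the variable genes, free RNA subtracted, cells thinned to 4000 UMIs, and ratios centred on the median gene.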

Additional observations from a re-analysis of the deposited data

Results flagged for a closer look

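In 6 genes the stage ratio was past 2-fold in opposite directions in 2 cell classes. The difference was not tested, since each stage is 1 library. Fzd9 at E12.5 over E11.5 was higher in mesenchyme (log2 1.97) and in neural progenitor-like cells (1.63) and lower in myocyte-like cells (-1.04). Nkd1 at the same step was higher in neural progenitor-like cells (1.30), though not with a minimum of 6000 UMIs per cell (-0.18) and by less than 2-fold at resolution 2 (0.76), and lower in myocyte-like (-1.22) and spinal neuron-like cells (-2.24). Wnt4 was higher in mesenchyme (1.86) and lower in spinal neuron-like cells (-1.38). At E13.5 over E12.5, Lef1 was higher in epidermis-like cells (1.47) and lower in myogenic progenitor-like cells (-1.62). Wnt16 was higher in epidermis-like cells (4.63, from 81 UMIs against 1) and lower in mesenchyme (-1.12), though there by less than 2-fold with free RNA subtracted (-0.94). Sfrp1 was higher in erythroid-like cells (2.54) and lower in epidermis-like cells (-1.32). Erythroid-like cells should lack Sfrp1. Free RNA was estimated at 23.1% of UMIs at E13.5 and 7.99% at E12.5 over the pooled cells, and at 2.32% and 1.62% for the median cell. Macrophage-like cells, which should lack it too, had 3.59 CPM at E13.5 and 4.28 CPM at E12.5. The part of free RNA in the erythroid ratio was not tested.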

How the results depend on the processing

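Alternatives were run for stage ratios of mesenchyme and neural progenitor-like cells. They were also run for genes higher at E12.5 in mesenchyme, neural progenitor-like or epidermis-like cells than in all other cells. Genes lower there and all other ratios given above were not rerun. Of the 80 rerun ratios of single members past 2-fold, all 80 stayed past it with the members among the variable genes. With centred ratios and with doublets kept 79 of 80 stayed, against 78 of 79 with free RNA subtracted and 75 of 80 at resolution 2. With 6000 UMIs per cell 74 of 79 stayed, against 71 of 74 with a 5% mitochondrial maximum and 65 of 69 in thinned cells. A minimum of 20 UMIs per gene, or none, changes which genes are compared and not their ratios, so all 80 stayed by construction. The reversals were Wnt2 in mesenchyme at E12.5 over E11.5 with the 5% maximum (-0.22, against 1.80) and, with 6000 UMIs per cell, Nkd1 in neural progenitor-like cells at E12.5 over E11.5 (-0.18, against 1.30) and Nkd1 (-0.15), Wnt3 (-0.85) and Axin2 (-0.68) in those cells over all others at E12.5. The cause was not tested. With 6000 UMIs per cell, the 5% maximum, resolution 2, doublets kept or members among the variable genes, cells were clustered and named again. The neural progenitor-like class of E12.5 then held 112, 372, 211, 474 and 462 cells in that order, against 663. Genes higher in mesenchyme at E12.5 over E11.5 numbered 12 (thinned) to 19 (no minimum), against 15. Genes lower numbered 5 with no minimum and 2 with 20 UMIs per gene, centred ratios, the 5% maximum, doublets kept, resolution 2 or members among the variable genes, against 1. At E13.5 over E12.5, 11 were higher with no minimum (against 4) and 1 lower with free RNA subtracted (against 2). In neural progenitor-like cells at E12.5 over E11.5, 10 were higher with 20 UMIs and 17 with no minimum (against 6), and lower ones, 0 as reported, numbered 1 with 20 UMIs, 6 with no minimum, 2 in thinned cells and at resolution 2, 7 with 6000 UMIs per cell and 3 with the 5% maximum. At E13.5 over E12.5 higher ones (1 as reported) numbered 3 with 20 UMIs, 7 with no minimum, 2 when centred, with free RNA subtracted or with doublets kept, and 0 in thinned cells and at resolution 2. Lower ones (0 as reported) numbered 3 with 20 UMIs and at resolution 2, 11 with no minimum and 1 with members among the variable genes. With 6000 UMIs per cell and with the 5% maximum that comparison gave no value, with under 50 cells at E13.5. No paired analysis was possible because each stage is 1 library, and for the same reason no replicate could be left out.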
